A study of Mus musculus with 4 samples.

Results

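The genes described here are 39 genes of the cell cycle and DNA replication, measured in mouse colon with and without dextran sulfate sodium (DSS) in a wildtype and a Pla2g10 knockout genotype. They were chosen by name: 16 act in S phase, when DNA is copied, and 23 act in mitosis, when the copied chromosomes are parted. On each array the names matched 60 spots of 51 probes, out of 43020 spots that are not controls and 30199 gene names in all. One member, Ccne2, was not well above background on any of the 4 arrays, which left 38 measured members (15 of S phase and 23 of mitosis). Of these, 36 were well above background on all 4 arrays. The exceptions were Aurkb, which was not well above background in naive WT and DSS KO colon, and Cenpf, which was not in naive KO and DSS KO colon.

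The study asked what loss of Pla2g10, the gene of the secreted group X phospholipase A2, does to the colon in DSS colitis, a model in which a sulfated polysaccharide in the drinking water injures the gut lining. Its 4 groups were naive wildtype (WT), naive knockout (labelled X-KO, here KO), DSS-treated WT and DSS-treated KO colon, all of the C57BL/6 strain. DSS was given at 1% (w/v), and the design text places that colon at day 7. The mice are taken to be males of 9 weeks, because the labels carry the sex under the age tag and the age under the sex tag, and the husbandry text gives 8 weeks. Each group is 1 array that carried a pool of colon RNA of 3 mice, so no group has a second array, the spread between mice cannot be seen, and the pairwise differences below carry no p-value.

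As background, a dividing cell first loads the MCM helicase onto replication origins, a step carried out by Cdc6 and Cdt1, and then fires those origins once cyclin E and its kinase become active. Genes of this step are largely switched on by E2F factors at the G1 to S transition. Genes of mitosis peak later, under B-Myb and Foxm1, which act through CHR elements, often beside CCAAT boxes bound by NF-Y. In the colon, division is concentrated in the lower crypt, where stem and transit amplifying cells renew the lining.

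The promoters of members are shown first because genes of the 2 phases are known to be read through different elements. The sequences come from RefSeq (GRCm38.p6). They hold the 160 bases before the annotated start, read 5′ to 3′ in the direction of the gene, and belong to members with the highest mean DSS response of their phase. Capitals mark E2F matches (TTTCCCGC, TTTGGCGC, TTTCGCGC or TTTGCCGC), CHR matches (TTTGAA) and CCAAT boxes (CCAAT), each on either strand, so that a reversed CCAAT box reads as ATTGG.
Rrm2 (chr12:24708094-24708253, plus strand): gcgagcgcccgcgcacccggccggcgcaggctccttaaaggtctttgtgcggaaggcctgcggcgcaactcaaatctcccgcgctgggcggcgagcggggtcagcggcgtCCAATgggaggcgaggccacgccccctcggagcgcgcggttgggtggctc
Mcm5 (chr8:75109349-75109508, plus strand): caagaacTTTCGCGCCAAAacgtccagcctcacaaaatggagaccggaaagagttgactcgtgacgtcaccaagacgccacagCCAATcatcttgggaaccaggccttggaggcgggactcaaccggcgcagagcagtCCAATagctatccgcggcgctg
Cdc6 (chr11:98907991-98908150, plus strand): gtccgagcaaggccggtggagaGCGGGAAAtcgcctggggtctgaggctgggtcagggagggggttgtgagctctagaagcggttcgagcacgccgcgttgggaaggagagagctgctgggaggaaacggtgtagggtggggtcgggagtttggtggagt
Cdk1 (chr10:69352913-69353072, minus strand): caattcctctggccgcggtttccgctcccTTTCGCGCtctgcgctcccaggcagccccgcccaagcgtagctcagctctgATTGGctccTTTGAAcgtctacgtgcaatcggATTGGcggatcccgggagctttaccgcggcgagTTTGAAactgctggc
Aurka (chr2:172370571-172370730, minus strand): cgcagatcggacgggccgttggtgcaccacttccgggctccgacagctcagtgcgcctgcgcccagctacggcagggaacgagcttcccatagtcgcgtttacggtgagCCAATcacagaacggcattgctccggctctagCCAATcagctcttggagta

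In these windows Mcm5 had 2 overlapping E2F matches, one on each strand, and 2 CCAAT boxes. Cdc6 had a single E2F match and no CCAAT box. Cdk1 had an E2F match, 2 CHR matches and 2 reversed CCAAT boxes, whereas Aurka and Rrm2 had CCAAT boxes only. The promoters of Ccne1 and Birc5, which ranked as high, held none of these letters in the same 160 bases. Of the 39 members, 31 matched the RefSeq promoter table; Ccna2, Ccne2, Gins1, Gins2, Mcm4, Aurkb, Kif20a and Tpx2 did not. Over the 250 bases before the start, an E2F match stood in 4 of 12 S phase promoters (33.3%; Cdc6, Mcm5, Mcm6 and Mcm7), in 1 of 19 mitosis promoters (5.26%; Cdk1) and in 2.16% of all 27025 promoters. A CHR match stood in 7 of 19 mitosis promoters (36.8%), namely Ccnb2, Cdk1, Cdc20, Ube2c, Kif11, Mki67 and Top2a. It stood in 1 of 12 S phase promoters (8.33%; Mcm2) and in 18.3% of all promoters. CCAAT boxes were found in 84.2% of the mitosis promoters, 66.7% of the S phase promoters and 37.5% of all promoters. Both a CHR match and a CCAAT box stood in 36.8% of the mitosis promoters and in 7.34% of all promoters. The median GC content was 59.6% for mitosis promoters, 58.1% for S phase promoters and 52.4% for all, and these shares are descriptions of letters, not of binding.

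Values below are relative signals, the scanner's processed signal of a probe divided by the 75th percentile of its array, and a log2 ratio is the log2 difference of 2 such values. Signals of different probes cannot be set against each other, so only the same gene is compared between arrays. Between 67.7% and 70.4% of spots were well above background, and no spot was saturated. Repeat spots of 1 probe had a log2 SD whose median per array lay between 0.0569 and 0.0631, an error of spotting and scanning that leaves out mice and extraction. Pla2g10 itself read 15.8 in naive WT, 1.69 in naive KO, 19.0 in DSS WT and 0.993 in DSS KO colon, low on both arrays labelled X-KO. Whether the deletion takes in the sequence of that probe was not tested.

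In WT colon the members were higher with DSS as a group, except that the S phase median turned to -0.08 when arrays were centred on reference genes, an alternative added after seeing the data. That centring subtracts the median log2 level of the reference genes on each array, 5.35 in naive WT and 5.89 in DSS WT colon. The median of the log2 ratios of these 10 genes was smaller, 0.38, and below the S phase median. The median log2 ratio of DSS over naive was 0.61 over all 38 members, 0.46 for S phase and 0.69 for mitosis, with 35 of 38 above 0. Over all 22162 measured genes the median was -0.02. In KO colon the phases parted: the S phase members had a median of 0.31 with 13 of 15 above 0, and the mitosis members had a median of -0.03 with 8 of 23 above 0, against -0.13 for all genes. That mitosis median was close enough to 0 to lie above it with scaling to the array median (0.04) and with centring on epithelial markers (0.23), also added after seeing the data. The mitosis median in WT was above 0 in all 11 settings tried, from 0.15 to 0.83.

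**Figure D1:**
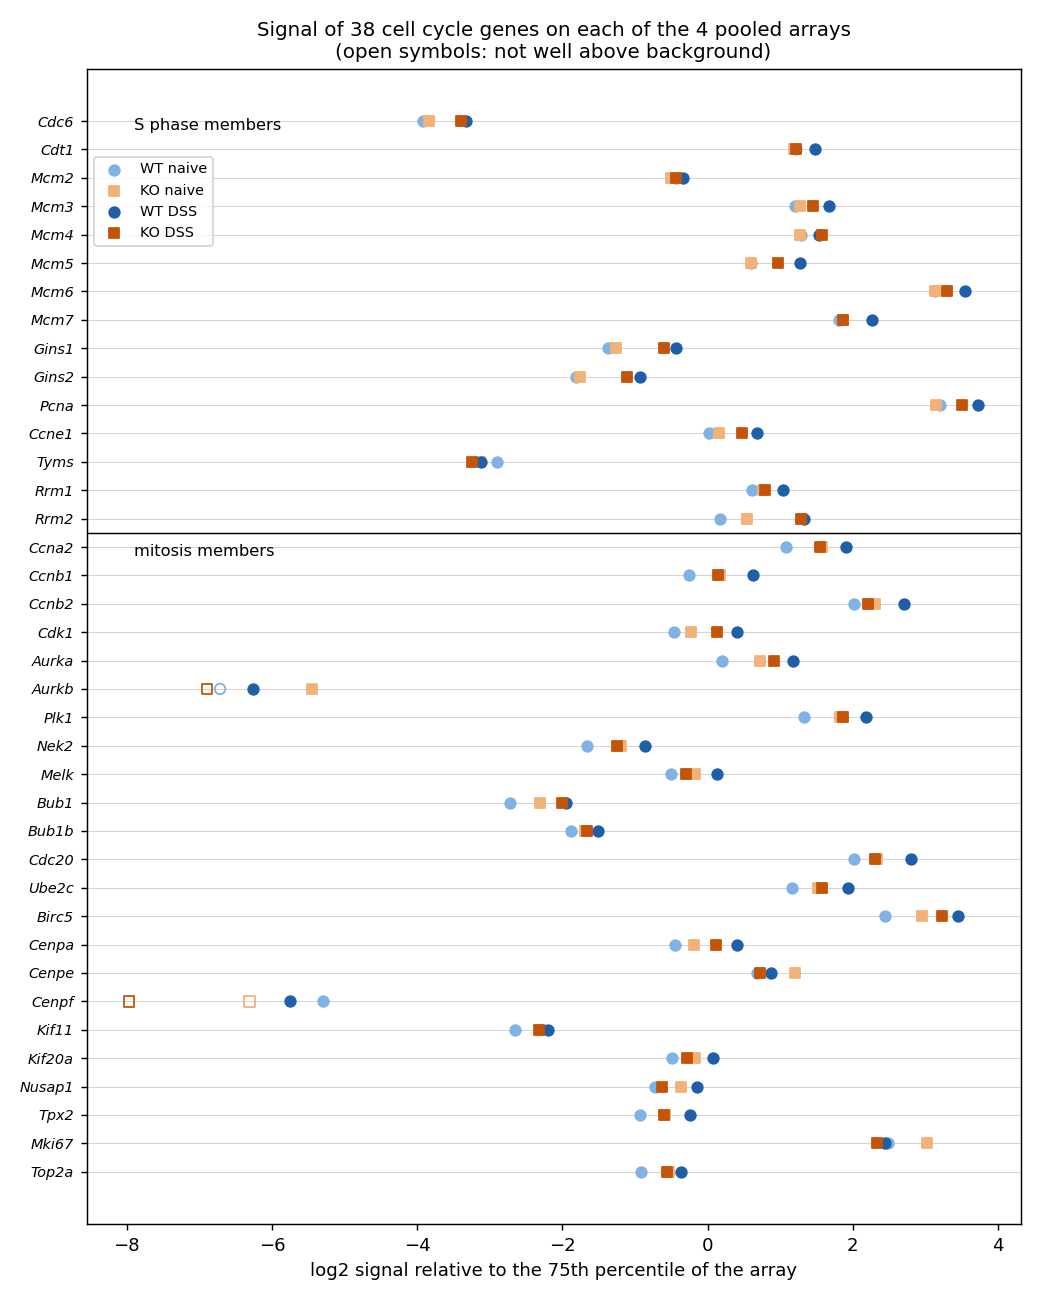
Relative signal of the 38 measured members on a log2 scale, 1 point per array (circles WT, squares KO, light naive, dark DSS), with S phase members above the line and open symbols for values not well above background. The dark blue points of DSS WT colon are the rightmost in 13 of 15 S phase and 19 of 23 mitosis members; under other centrings the order of the arrays can change.

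The initiator and helicase genes were slightly to moderately higher with DSS, more in WT than in KO. Cdc6, which loads the MCM ring, read 0.0660 in naive WT, 0.0699 in naive KO, 0.0992 in DSS WT and 0.0947 in DSS KO colon, so both DSS arrays were above both naive arrays (1.5-fold in WT, 1.36-fold in KO). Its other probe gave a similar WT log2 ratio of 0.58 but -0.34 in KO, so the KO response of Cdc6 is unsettled between probes. Cdt1, the partner of Cdc6 in loading, read 2.32, 2.28, 2.78 and 2.34 in the same order and stood apart in DSS WT colon alone. Mcm5, a subunit of the MCM helicase, had the highest WT ratio of the loading step: 1.51 in naive WT, 1.51 in naive KO, 2.43 in DSS WT and 1.96 in DSS KO colon, which is 1.60-fold in WT and 1.29-fold in KO. Its naive arrays were equal to 3 digits, and the DSS WT array was highest. Mcm7, in the same ring, read 3.51, 3.65, 4.83 and 3.64, so that the DSS WT array was higher than the 3 others. Mcm3 (log2 ratio 0.46 in WT and 0.19 in KO) and Mcm6 (0.42 and 0.16) had the same order of responses. Mcm4 did not, with 0.24 in WT and 0.31 in KO. Mcm2 was almost level, reading 0.740, 0.703, 0.788 and 0.739. The median of these 8 licensing members was 0.44 in WT and 0.17 in KO.

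Among genes of the replication fork, Gins1 and Gins2 were higher with DSS in both genotypes. They encode subunits of the GINS complex, which joins MCM and Cdc45 in the active helicase. Gins1 (probe at chr2:150756868-150756927, mm9) read 0.385 in naive WT, 0.417 in naive KO, 0.738 in DSS WT and 0.657 in DSS KO colon. Gins2 (chr8:123112627-123112686) read 0.285, 0.297, 0.527 and 0.464 in that order. For both genes the 2 DSS arrays lay above the 2 naive ones, by 1.92-fold and 1.85-fold in WT and by 1.58-fold and 1.57-fold in KO. Pcna, the sliding clamp that holds the polymerases on DNA, read 9.22, 8.83, 13.2 and 11.4, which is 1.44-fold in WT and 1.29-fold in KO. Ccne1, the cyclin E that drives entry into S phase, read 1.01, 1.12, 1.60 and 1.39. A dimmer probe of Ccne1 gave smaller log2 ratios, 0.20 in WT and 0.14 in KO, against 0.66 and 0.32 for the probe used. The 3 genes of nucleotide supply did not move alike. Rrm2, the regulated subunit of ribonucleotide reductase (probe at chr12:25398824-25398883), read 1.13 in naive WT, 1.46 in naive KO, 2.52 in DSS WT and 2.45 in DSS KO colon. Its DSS arrays were within 0.04 of each other on the log2 scale and above both naive arrays, 2.23-fold in WT and 1.67-fold in KO. Rrm1, the large subunit, read 1.53, 1.71, 2.05 and 1.74 and was highest in DSS WT colon. Tyms, which makes thymidylate, was highest in naive WT colon and read 0.133, 0.114, 0.115 and 0.106.

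The mitotic cyclins and their kinase were higher with DSS in WT colon and, apart from Cdk1, level in KO colon. Ccnb1, a cyclin B that activates Cdk1 at entry into mitosis (probe at chr13:101548722-101548781), read 0.836 in naive WT, 1.12 in naive KO, 1.54 in DSS WT and 1.11 in DSS KO colon. The 2 KO arrays were level, and lay between the naive and DSS WT arrays. Of the 3 probes of Ccnb1, the WT log2 ratios were 0.88, 0.98 and 0.75, while the KO ratios were -0.02, 0.52 and 0.03. Ccnb2 read 4.04, 4.93, 6.5 and 4.63, and Ccna2, the cyclin of S phase and G2, read 2.12, 2.98, 3.77 and 2.92. Both were 1.6-fold or more higher with DSS in WT (1.61-fold and 1.77-fold) and slightly lower with DSS in KO colon (log2 ratios of -0.09 and -0.03). Cdk1 differed from its cyclins in that both genotypes were higher with DSS: it read 0.727, 0.852, 1.33 and 1.09, which is 1.83-fold in WT and 1.28-fold in KO.

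The mitotic kinases followed the cyclins. Aurka, which matures the centrosomes (probe at chr2:172181726-172181785), read 1.15 in naive WT, 1.65 in naive KO, 2.27 in DSS WT and 1.89 in DSS KO colon. With DSS it was 1.98-fold higher on the WT array and 1.14-fold on the KO array. Plk1, which acts from mitotic entry to cytokinesis, read 2.50, 3.54, 4.54 and 3.65, so that the 2 KO arrays were close to each other and between those of WT. Nek2, a kinase of centrosome separation, read 0.315, 0.439, 0.549 and 0.421, and Melk, a kinase raised in dividing progenitors, read 0.703, 0.885, 1.09 and 0.817. For these kinases too naive WT colon was the lowest array and DSS WT colon the highest. Aurkb, the kinase of the chromosomal passenger complex, was near background: it read 0.0229 in naive KO and 0.0131 in DSS WT colon, and was not well above background on the other arrays. Against the lowest well-measured signal of DSS KO colon, naive KO colon was at least 1.62-fold higher.

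Genes of the spindle checkpoint and of the anaphase promoting complex were again higher with DSS in WT, and in KO 3 of the 4 were nearly level, with log2 ratios of -0.03 to 0.06, while Bub1 was 0.30. Bub1, a checkpoint kinase, has 10 spots on each array, the most of any member. It read 0.152 in naive WT, 0.202 in naive KO, 0.258 in DSS WT and 0.249 in DSS KO colon, and its spots varied by an SD of 0.109, 0.0605, 0.0990 and 0.0769 on the log2 scale. The log2 ratios were 0.76 in WT and 0.30 in KO; the spot SDs cover spotting and scanning of 1 RNA pool per array and say nothing of the spread between mice. Bub1b, its partner in the checkpoint, read 0.271, 0.310, 0.353 and 0.316. Cdc20, which switches on the complex at anaphase, read 4.04, 5.06, 6.99 and 4.96, and Ube2c, the ubiquitin-conjugating enzyme that serves it, read 2.25, 2.88, 3.84 and 2.99. For Cdc20 and Ube2c the WT ratios were 1.73-fold and 1.70-fold and the KO log2 ratios -0.03 and 0.06.

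At the centromere, Birc5 (survivin, the passenger protein that positions Aurkb; probe at chr11:117716978-117717037) read 5.46 in naive WT, 7.72 in naive KO, 11 in DSS WT and 9.40 in DSS KO colon. The DSS array was 2.01-fold higher in WT, against 1.22-fold in KO. Its 2 other probes gave WT log2 ratios of 1.06 and 1.17 and KO ratios of 0.58 and 0.55. Cenpa, the histone H3 variant of centromeres, read 0.730, 0.883, 1.32 and 1.08. Cenpe, a kinetochore motor, was highest in naive KO colon and read 1.61, 2.31, 1.83 and 1.65. Cenpf, a kinetochore protein, was close to background and 1.36-fold lower with DSS in WT. Among spindle genes, Kif11 (a motor that separates the poles) read 0.158, 0.202, 0.218 and 0.20 and Tpx2 (an activator of Aurka) read 0.524, 0.665, 0.843 and 0.659. Kif20a, a motor of cytokinesis, read 0.715, 0.884, 1.06 and 0.824, and Nusap1, which bundles spindle microtubules, read 0.607, 0.774, 0.905 and 0.645. All 4 spindle genes had DSS WT colon as the highest and naive WT colon as the lowest array.

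The commonly used proliferation marker Mki67 did not follow most other mitosis members. With Cenpe and Aurkb, it was 1 of 3 mitosis members highest in naive KO colon. It read 5.63 in naive WT, 8.15 in naive KO, 5.43 in DSS WT and 5.06 in DSS KO colon (probe at chr7:142881591-142881650). Naive KO colon stood alone as high, the WT arrays were level, and with DSS the KO signal was 1.61-fold lower. Its other probe gave like log2 ratios, -0.09 in WT and -0.67 in KO. Top2a, the topoisomerase that untangles sister chromosomes, read 0.529, 0.693, 0.778 and 0.679, lowest in naive WT and highest in DSS WT colon.

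**Figure D2:**
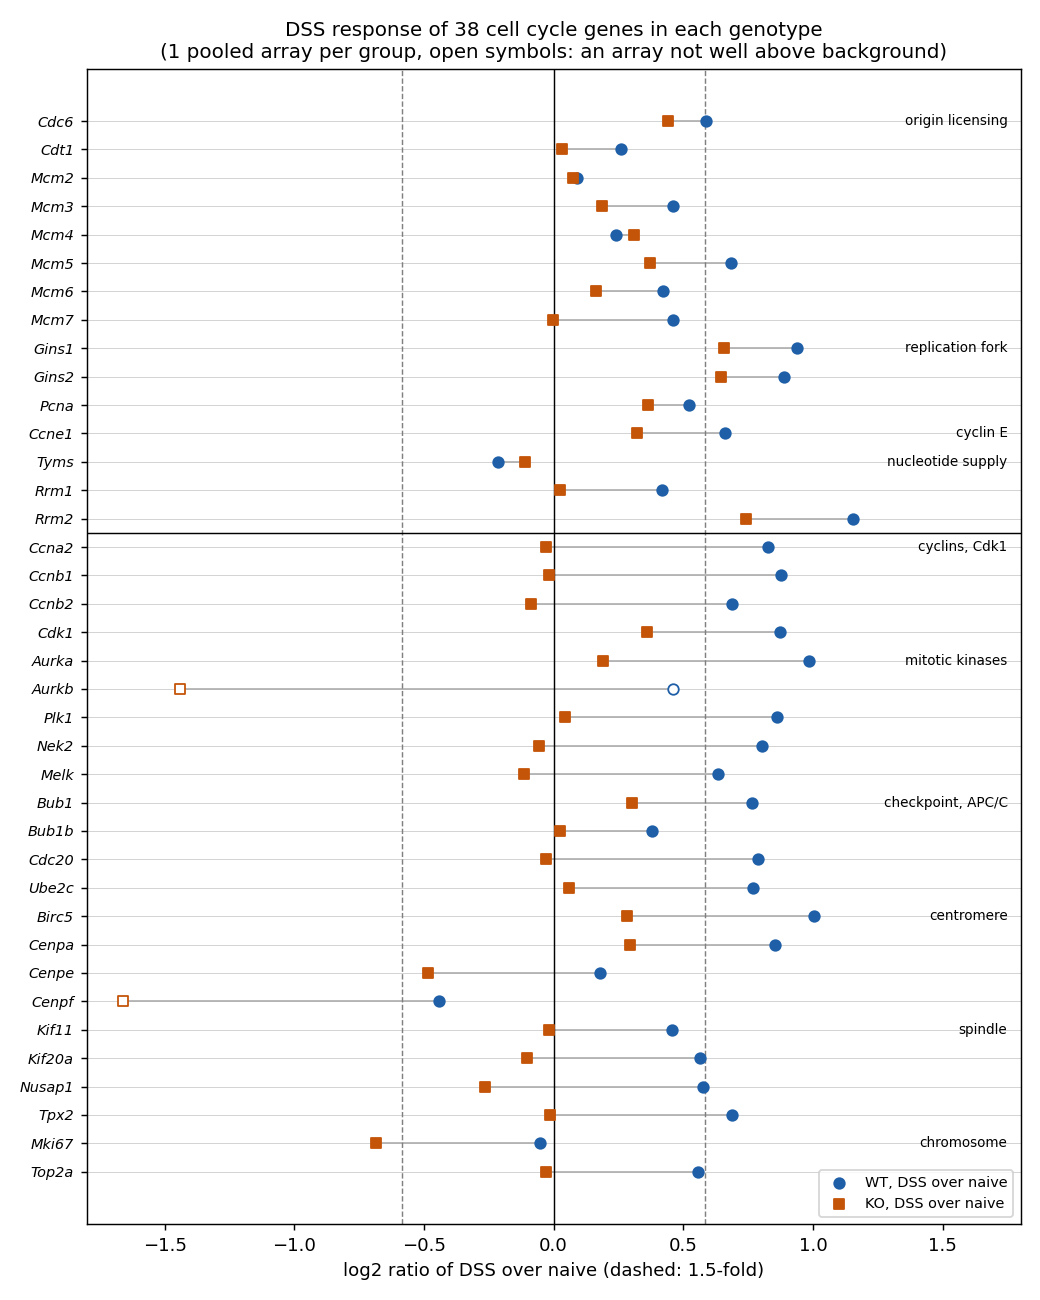
Log2 ratio of DSS over naive colon for each measured member, in WT (blue circles) and KO (orange squares), with dashed lines at 1.5-fold; open symbols are ratios with an array not well above background. The WT points of S phase and mitosis members have medians of 0.46 and 0.69, and the KO points medians of 0.31 and -0.03. With reference gene centring the WT S phase median is -0.08, and 8 of 15 S phase members are above 0 in KO. With median scaling or epithelial centring the KO mitosis median is above 0.

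Counted by size, the WT response was broad but small. With DSS, 2 members (Birc5 and Rrm2) were at least 2-fold higher, where 3.44% of all genes were, and none was 2-fold lower (5.13% of all genes). The 2-fold count was 8 with median scaling and 0 with either centring. The shares of all genes given here hold for the main scaling only. Counts under other settings have no such share beside them. At 1.5-fold, 20 of 38 members were higher (7.95% of all genes): 6 of 15 S phase members, namely Cdc6, Mcm5, Gins1, Gins2, Ccne1 and Rrm2, and 14 of 23 mitosis members. None was 1.5-fold lower, where 12.8% of all genes were. The count at 1.5-fold was 7 with epithelial centring and 1 with reference gene centring. Such centring shifts all genes of an array alike, so those 2 counts cannot be set against the 7.95%. In KO colon no member passed 2-fold in either direction (5.67% of all genes were higher and 5.0% lower). At 1.5-fold 3 were higher (10% of all genes), all of S phase (Gins1, Gins2 and Rrm2), and 2 were lower (15.6% of all genes), both of mitosis (Aurkb and Mki67); with epithelial centring these counts were 7 and 0, and with reference gene centring 0 members were higher.

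The DSS responses can be set side by side without a shared array. Across members, the WT and KO log2 ratios had a Pearson r of 0.88 over the 15 S phase members and 0.83 over the 21 mitosis members well above background on all arrays. This is a correlation across genes, which are not independent, and the genes of a ratio share 2 arrays and their scaling. Members with a higher ratio in WT thus tended to have a higher ratio in KO, while the level of the mitosis genes differed. Of the 21 mitosis members, Mki67 and Cenpe had the lowest ratios in both genotypes, and r without them was not computed. The signed log2 ratio was lower in KO than in WT for all 23 mitosis members and for 13 of 15 S phase members, but with epithelial centring for 19 of 23 and 0 of 15. For Mki67 and Cenpe that meant a ratio further below 0 in KO (-0.69 and -0.49) than the WT ratio was from 0 (-0.05 and 0.18). The median difference (KO minus WT) was -0.72 for mitosis, -0.26 for S phase and -0.10 for all genes. The mitosis median stayed below 0 in all 11 settings (-0.18 to -0.79), but the S phase median turned to 0.28 with epithelial centring. The gap between the phases does not move with a shift of a whole array: S phase minus mitosis was -0.23 in WT and 0.34 in KO colon. The interaction of genotype and treatment has no residual degree of freedom and was not tested.

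Without DSS, the mitosis members were higher in KO than in WT colon in all 11 settings and the S phase members were nearly level. The median log2 ratio of KO over WT was 0.35 for mitosis, with 22 of 23 above 0, and 0.05 for S phase, with 10 of 15 above 0; all genes had a median of 0.02. The mitosis median ranged from 0.20 to 0.37 over the settings, while that of S phase was -0.08 and -0.10 with reference gene and epithelial centring. The highest ratios among members well above background on all arrays were those of Mki67 (0.53), Aurka (0.53) and Cenpe (0.52). They were below the 1.5-fold limit, so no member was counted as higher (3.20% of all genes were), and 1 was counted as lower (2.24% of all genes): Cenpf, at least 1.65-fold. No member passed 2-fold, where 1.13% of all genes were higher and 1.04% lower.

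With DSS the sign was the opposite: 37 of 38 members were lower in KO than in WT colon under the main scaling, Mcm4 being the exception at 0.05, but with epithelial centring the medians of both phases lay above 0. The median log2 ratio was -0.36 for mitosis, -0.20 for S phase and -0.09 for all genes under the main scaling, and 0.04 and 0.19 for mitosis and S phase with epithelial centring. No member passed 1.5-fold in either direction, where 10.4% of all genes were higher and 5.64% lower. The 2-fold limit was passed by none either (5.06% and 2.20% of all genes). The furthest below 0 among well-measured members were Nusap1 (-0.49), Cdc20 (-0.49) and Ccnb2 (-0.49), and in S phase Mcm7 (-0.41). Each genotype comparison shares an array with each DSS comparison, so these values restate the same 4 arrays and are not further evidence.

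**Figure D3:**
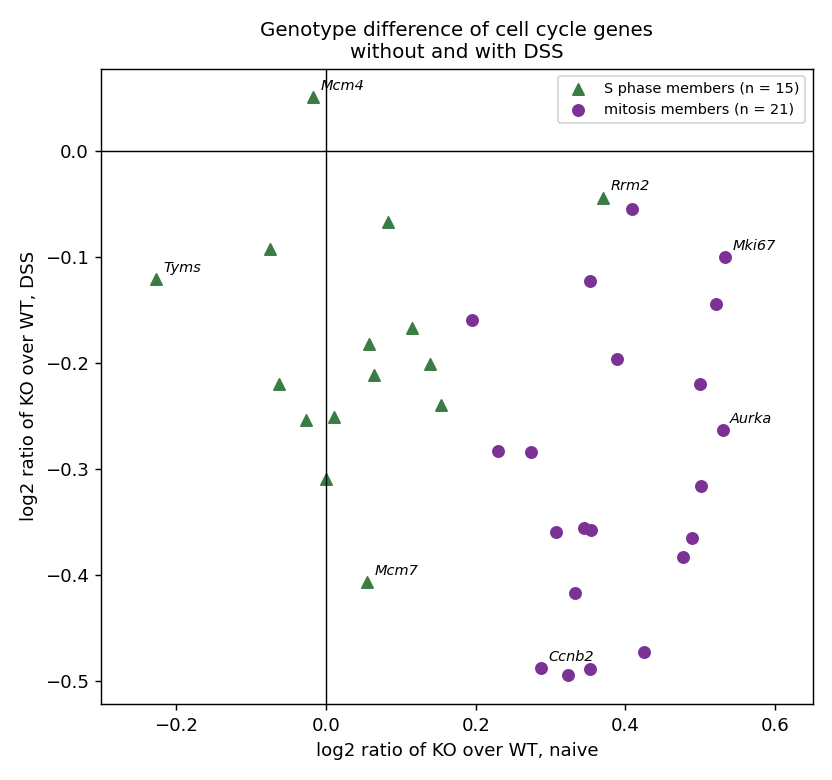
Log2 ratio of KO over WT colon without DSS (horizontal) and with DSS (vertical) for the 15 S phase members (triangles) and the 21 mitosis members (circles) well above background on all 4 arrays. The mitosis members lie to the right of 0 and below 0, and the S phase members spread around 0 on the horizontal axis; with epithelial centring the vertical medians are 0.19 and 0.04, above 0.

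The only test across samples that the design allows is an additive limma fit of treatment and genotype over the 4 arrays, with 2 arrays at each level and 1 residual degree of freedom. For DSS it called 0 of 22162 genes at a Benjamini-Hochberg adjusted p under 0.05 (smallest adjusted p 0.175), with 4052 genes (18.3%) at an unadjusted p under 0.05. Of the members 4 were among these, all of S phase: Rrm2 with a mean log2 DSS effect of 0.95 ± 0.20 (SE; limma adjusted p 0.222), Gins1 with 0.80 ± 0.18 (0.228), Gins2 with 0.77 ± 0.17 (0.228) and Cdc6 with 0.51 ± 0.17 (0.270). Each was higher on both DSS arrays than on the naive array of its genotype. For Cdc6 this held for the probe used, while its other probe had a log2 ratio of -0.34 in KO. No mitosis member was among them in this fit, and the residual of this fit is the difference between the WT and KO responses. With a trended, robust prior limma called 1611 genes (2.94% of all genes as higher), including Rrm2, Gins1 and Gins2 (adjusted p 0.0143, 0.0307 and 0.0403). In that fit 11 members were at an unadjusted p under 0.05 (24.8% of all genes), 6 of S phase and 5 of mitosis. With probes well above background on all 4 arrays it called 1272 (2.65% as higher), including Rrm2 (0.0421), and 12 members were at an unadjusted p under 0.05 (25.7% of all genes), 7 of S phase and 5 of mitosis. For genotype, limma called 0 genes (smallest adjusted p 0.909, 862 genes or 3.89% at an unadjusted p under 0.05). Cenpf was the single member at an unadjusted p under 0.05 for genotype, and its KO arrays are not well above background.

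Other genes of the same pathways, on lists chosen with earlier results known, had medians near those of the members in WT colon, but did not show the gap between the phases in KO colon with DSS, where their medians were 0.13 for replication and 0.09 for mitosis (members 0.31 and -0.03). Of 40 further replication genes, 35 were above 0 in WT (median 0.42) and 25 in KO (median 0.13). In WT 8 were at least 1.5-fold higher and 0 lower, where 7.95% and 12.8% of all genes were. In KO 1 was at least 1.5-fold higher and 2 were lower, where 10% and 15.6% of all genes were. Fen1, the flap nuclease of lagging strand synthesis, was 1.74-fold higher with DSS in WT. Pole2, a subunit of polymerase epsilon, was 1.69-fold higher in both genotypes. Of 52 further mitosis genes, 49 were above 0 in WT (median 0.59) and 30 in KO (median 0.09). In WT 26 of them were at least 1.5-fold higher (7.95% of all genes). One limit lower, at 1.5-fold down, was passed by 1, Kif14, at 1.81-fold (12.8% of all genes). In KO 2 were at least 1.5-fold higher (10% of all genes) and 1 was lower (15.6% of all genes). The largest WT ratio was that of the centromere gene Cenpw, at 2.41-fold, with 1.52-fold in KO. In naive colon 49 of the 52 were higher in KO than in WT (median 0.30), and in DSS colon 3 were (median -0.26).

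The regulators of both phases were not uniform. E2f2, an activator E2F, read 1.06 in naive WT, 1.61 in naive KO, 4.04 in DSS WT and 4.31 in DSS KO colon, so both DSS arrays were well above the naive ones (3.79-fold and 2.67-fold). Mybl2, which encodes B-Myb, read 0.753, 0.835, 1.71 and 1.45, also higher with DSS in both. Foxm1, the forkhead factor of G2 and mitosis genes, followed the mitosis members instead: it read 0.354, 0.462, 0.592 and 0.381, with a ratio of 1.67-fold for DSS in WT, and in DSS colon it was 1.55-fold lower in KO than in WT. The 16 genes of the E2F, Myb, Foxm1 and Myc list had a median of 0.17 in WT and -0.01 in KO. Among 16 measured cell cycle inhibitors the medians were 0.02 and -0.18. Wee1, the kinase that restrains Cdk1, was lower with DSS in both genotypes (2.05-fold in WT, 1.97-fold in KO). Cdkn1a, the inhibitor p21, was 2.0-fold lower with DSS in KO colon and had a log2 ratio of -0.13 in WT. The 9 measured genes of the list of G1 cyclins and kinases, which also holds Cdc25a, Ccnh and Cdk7, had medians of 0.10 and 0.12. Ccnd1, a cyclin D of G1, was 1.71-fold higher with DSS in KO. The 15 measured DNA repair genes had medians of 0.04 and -0.20; 4 were at least 1.5-fold higher with DSS in WT and 1 lower, against 0 and 0 in KO, where 7.95%, 12.8%, 10% and 15.6% of all genes were. The 14 measured genes of the p53 list, Trp53 itself and targets, had medians of 0.01 and -0.07.

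Reference genes and epithelial markers had medians of the same sign as the mitosis members in each of the 4 comparisons under the main scaling. The 10 reference genes, Actb among them (151, 179, 192 and 165), had median log2 ratios of 0.38 with DSS in WT, -0.16 with DSS in KO, 0.23 for KO over WT in naive colon and -0.22 in DSS colon. The 10 epithelial markers, all well above background on every array, had medians of 0.28, -0.30, 0.24 and -0.28 in the same order. Their summed relative signal was 416 in naive WT, 493 in naive KO, 506 in DSS WT and 400 in DSS KO colon. Krt19 (67.9, 80.5, 83.1 and 66.4) is an example. The mitosis medians were further from 0 than these lists in WT with DSS and in both genotype comparisons, and nearer to 0 in KO with DSS. What part an unequal share of epithelium, or of RNA in general, has in the member values was not tested. In such bulk RNA, fewer dividing cells and less RNA per dividing cell cannot be told apart.

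Crypt stem cell markers had medians below 0 with DSS in both genotypes, the opposite sign of the members in WT and of the S phase members in KO under the main scaling. Of 11 markers, 3 were above 0 with DSS in WT (median -0.75) and 1 in KO (median -1.06), against 35 of 38 and 21 of 38 members. Lgr5, the receptor that marks crypt stem cells and is named here after its values were seen, read 0.524 in naive WT, 0.477 in naive KO, 0.194 in DSS WT and 0.160 in DSS KO colon. Markers of several other cell types were higher in DSS KO than in DSS WT colon. The 7 fibroblast markers summed to 77.3, 62.3, 82.8 and 145, and 7 of 7 were higher in DSS KO than in DSS WT colon. The 11 measured neutrophil markers had median log2 ratios of 1.18 with DSS in WT and 2.0 in KO, 9 of 11 being above 0 in each. The 4 measured erythroid markers, of another lineage that divides, had medians of 1.13 and 3.46 and summed to 4.68, 3.87, 11.4 and 43.8. The 10 B and plasma cell markers had a median of 1.02 for KO over WT with DSS. Of the 7 germinal centre B cell markers, another dividing population, 5 were measured; they summed to 2.93, 2.87, 3.93 and 4.76. Pancreatic acinar markers, which colon should lack, were on both DSS arrays (8 of 8 well above background, summing to 29.9 in WT and 8.16 in KO) while 2 of 8 were well above background on each naive array. The naive sums were 7.53 in WT and 6.65 in KO. With DSS 7 of the 8 acinar markers had a log2 ratio above 0 and 1 below 0 in each genotype. The part of these cells in the values of the cell cycle genes was not tested.

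**Figure D4:**
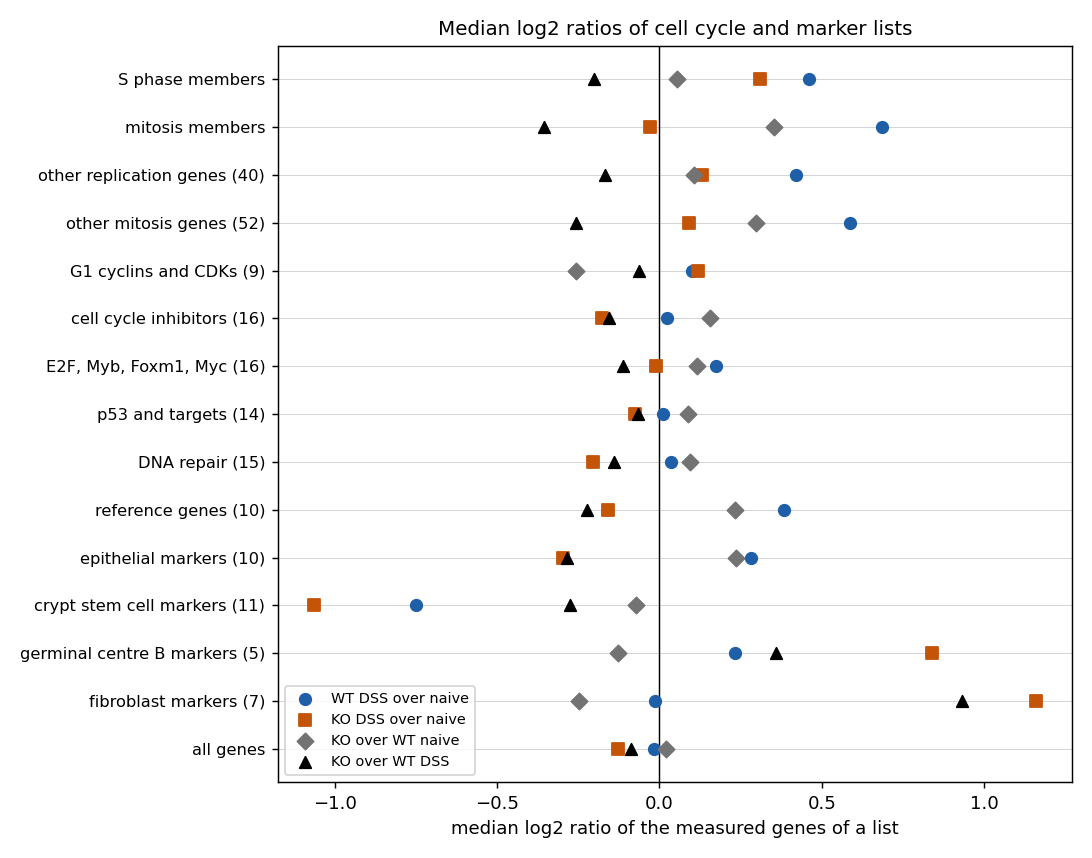
Median log2 ratio of each list for the 4 comparisons (blue circles WT DSS over naive, orange squares KO DSS over naive, grey diamonds KO over WT naive, black triangles KO over WT DSS), with the number of measured genes in brackets. Mitosis members, further mitosis genes, reference genes and epithelial markers share the signs of 3 comparisons (WT with DSS and both of genotype), whereas crypt stem cell markers lie at -0.75 and -1.06 with DSS. Centring on the reference or epithelial list sets the median level of that list to 0 on each array and shifts all genes alike. It does not set the median log2 ratio of that list to 0.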

How the data were processed

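Colon RNA, 3 mice pooled per group, was read on 4 single-colour Agilent arrays on 1 slide with 1 scan date, so slide and date cannot separate the groups. Per the labels' protocols, 200 ng of total RNA were amplified and labelled with Cy3. The deposited scanner files hold an intensity per spot, the processed signal after background subtraction, made with Agilent Feature Extraction 11.5.1.1 per the submitters' processing notes, with probe positions on mm9 per the file headers. The deposited series table holds a signal per spot, the processed signal divided by a constant close to the array's 75th percentile, as its values show, and served as an alternative. Control spots (1377) and outlier spots (129 to 136 per array) were left out. The log2 processed signal minus the array's 75th percentile was taken, spots of a probe were averaged, the 28734 of 39429 probes that stood well above background on any array were kept, and the brightest kept probe stood for a gene (22162 genes). Names came from RefSeq through accessions (27458 probes), symbols (3543) or synonyms (404), otherwise from the files (7973), and for the members from the files' gene names (51).

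Folds compare 1 array with 1 array; a dim lower array was set to its lowest well-measured signal ("at least"). Members past 2-fold and 1.5-fold were counted beside all genes. Limma 3.58.1 in R 4.3.3 fitted treatment plus genotype and was tested on simulated data. Alternatives were other scalings, background corrections, filters, probe rules and priors; centring on reference or epithelial genes was added after seeing the data. All 39 members are accounted for. Of each pathway list up to 4 genes per comparison and direction with the largest ratio past 1.5-fold could be named, and of each marker list the 3 brightest. Promoters shown were those with the largest mean DSS response, up to 4 a phase. The members and lists were chosen with earlier results of these data known. The number of arrays limits the precision.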

Additional observations from a re-analysis of the deposited data

Results flagged for a closer look

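The values below stand out because the DSS response differed between WT and KO colon, with opposite signs under the main scaling in the single members listed. None of these differences was tested, since each genotype has 1 naive and 1 DSS array.

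The median DSS response of the mitosis members was 0.69 in WT and -0.03 in KO on the log2 scale, a difference of -0.72. S phase minus mitosis was -0.23 in WT and 0.34 in KO, a difference of 0.56. Among single members, Nusap1 had 0.58 in WT and -0.26 in KO (difference -0.84). Melk had 0.63 and -0.11 (difference -0.75). Kif20a had 0.57 and -0.10 (difference -0.67), and Cenpe had 0.18 and -0.49 (difference -0.67). The KO values of Melk and Kif20a were smaller than the scanner software's error for their spots, up to 0.138 on the log2 scale. The measured values of Aurkb gave 0.46 and -1.44 (difference -1.90), but naive WT and DSS KO colon were not well above background for it. The median mitosis response in KO was nearly level and not a clear fall. It was 0.04 with median scaling and 0.23 with epithelial markers as the centre, the same sign as in WT. With epithelial markers as the centre 18 of 23 mitosis members were above 0 in KO, against 8 under the main scaling.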

How the results depend on the processing

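No group has a second array, and leaving out any array leaves the additive fit no residual degree of freedom, so no such alternative was run. No paired analysis was possible because each group holds 1 array. Depth does not apply to arrays; signal near background limits Aurkb, Cenpf and Ccne2. Most planned values stayed within 0.0893 (log2), taken from repeat spots, or within 1.5 times a count. The cause of the changes was not tested beyond what each setting does. Counts of members past a fold under an alternative have no share of all genes beside them.

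With median scaling, which moved the median of all genes in WT from -0.02 to 0.12, 8 members were 2-fold higher in WT. The WT medians were then 0.75 (members), 0.60 (S phase) and 0.83 (mitosis), and KO over WT with DSS gave -0.34, -0.29 and -0.45, with 1 member 1.5-fold lower. Quantile normalization left 1 member 2-fold higher in WT, 1 1.5-fold lower in KO and a mitosis median of -0.26 for KO over WT with DSS. With normexp and quantile 1 was 2-fold higher in WT, 1 was 1.5-fold lower in KO and 0 in naive KO over WT. Its S phase medians were 0.36 in WT and 0.20 in KO, S phase minus mitosis in KO 0.22, the mitosis median with DSS -0.26 and the mitosis difference of responses -0.62. The series table left 1 member 2-fold higher in WT. The mean of probes gave an S phase median of 0.20 in KO and S phase minus mitosis of 0.23. With probes measured on all 4 arrays 1 member was 1.5-fold lower in KO and 0 in naive KO over WT. Without the bound, 1 member was 2-fold lower in KO, 1 2-fold higher, 1 2-fold lower and 1 1.5-fold higher in naive KO over WT, and with DSS 1 was 2-fold and 2 were 1.5-fold lower.

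Centring took the median log2 level of the list on each array as 0. For reference genes that level was 5.49 in naive KO and 5.78 in DSS KO colon, although the median log2 ratio of the 10 genes was -0.16. With reference gene centring 0 members were 2-fold and 1 was 1.5-fold higher in WT, 3 were lower, and 0 were 1.5-fold higher in KO. The medians of members, S phase and mitosis were 0.070, -0.079 and 0.15 in WT, -0.26, 0.019 and -0.32 in KO, 0.16, -0.080 and 0.22 for naive KO over WT, -0.14, -0.085 and -0.24 with DSS, and -0.28, -0.010 and -0.47 for the difference of responses, where all genes had 0.15. With epithelial centring 0 members were 2-fold and 7 were 1.5-fold higher and 1 lower in WT, and in KO 1 was 2-fold and 7 were 1.5-fold higher and 0 lower. The same medians were 0.33, 0.18 and 0.41; 0.29, 0.57 and 0.23; 0.15, -0.10 and 0.20; 0.14, 0.19 and 0.035; and 0.0067, 0.28 and -0.18, with all genes at 0.13 in KO and 0.44 for the difference.

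For DSS, limma called 1611 genes and 3 members with a trended, robust prior, 1272 and 1 with probes on all 4 arrays, and 35 genes without a filter; for genotype it called 7 genes with the trended, robust prior.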
